A study of Mus musculus with 16 samples.

Results

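The comparison described here set the cortex of 4 5xFAD mice against the cortex of 4 wild-type C57BL/6J mice, all 5 months old, with 1 polyadenylated RNA library per animal, and it took in 8 of the 16 libraries of the study and the 17019 genes that passed a filter on low counts. The 5xFAD line has transgenes of human origin, mutant APP among them, that bear mutations of familial Alzheimer disease and are expressed in neurons from the Thy1 promoter, and both groups lack Dp16, a duplicated stretch of mouse chromosome 16 whose genes correspond to many on human chromosome 21. Replicates 1 and 3 of the wild-type group were males and replicates 2 and 4 females, while replicates 1 and 2 of the 5xFAD group were females and replicates 3 and 4 males. The other 8 animals of the same age carried Dp16 with or without the transgenes (5xFAD-Dp16 and Dp16, 4 each). The Dp16 group held both sexes and the 5xFAD-Dp16 group males alone. The labels name the mutant lines by these names only, and give no litter, strain background of the mutants or dissection date.

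In 5xFAD mice, neurons release amyloid-β peptide that collects in extracellular plaques. Microglia, the resident macrophages of the brain, surround plaques and switch from a surveying state to a disease-associated state, a step that depends on the lipid-sensing receptor Trem2 and its signalling adaptor Tyrobp. Astrocytes near plaques become reactive and build up the intermediate filament Gfap.

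Library totals in the 8 libraries lay between 12483286 and 18556592 counted reads. Reads from the mitochondrial genome made up 7.71 to 8.16% of wild-type totals, 8.11 and 8.78% in the 5xFAD males, and 10.99 and 10.6% in the 5xFAD females. Wild-type replicate 2 and 5xFAD replicate 3 correlated least with the other libraries (median correlation of log2 values 0.964 and 0.954). Wild-type replicate 4 had relatively more reads from long genes and 5xFAD replicate 3 relatively fewer, with Spearman correlations of deviation and gene length, across genes, of 0.46 and -0.46. The 25 excitatory and cortical layer genes all passed the filter, with summed levels of 3090.2 to 4882 CPM in wild-type and 2885 to 3713 CPM in 5xFAD. CPM is the count per 1e6 reads after scaling by library composition. The 15 markers of striatum, the region beneath the cortex, also passed, at a summed 1568 to 2303 CPM in wild-type and 1398 to 2245 CPM in 5xFAD. In each of the 8 libraries, expression of Xist and of Y-linked genes fitted the sex on the label.

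Against this background 30 of 17019 genes passed the threshold, which is 0.176% of those tested (edgeR's quasi-likelihood test, Benjamini-Hochberg adjusted p below 0.05, in a model of all 16 libraries with sex as a term). Of these, 27 rose in 5xFAD (0.159%) and 3 fell (0.0176%). The genes that rose had a median log2 difference of 1.34, and 16 of the 27 stood in the lists of general, homeostatic or disease-associated microglial genes. Those lists had 20, 22 and 33 tested members and share genes. They were chosen with earlier results of these data known, so the overlap is a description only. The 4 of the 27 that stood in none of the 49 lists were Thy1, Cd84, Samsn1 and Capg. All 4 5xFAD libraries lay above all 4 wild-type libraries for each of the 27, and below them for each of the 3 that fell. Over all genes tested, 2.8% had every 5xFAD library above and 2.68% every one below. DESeq2, with its own spread estimate, called 234 genes (1.38%), including these 30. The median log2 difference over all genes was 0.02, and 52.1% of genes were above 0. In whole tissue, more cells of a type and more RNA per cell cannot be told apart.

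**Figure D1:**
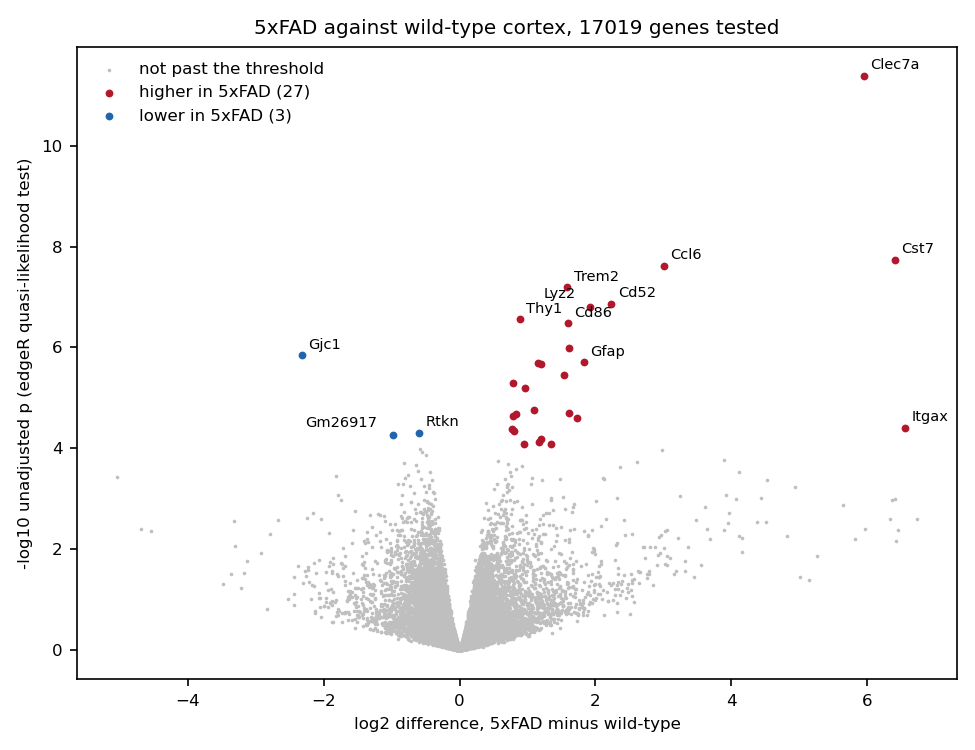
Each point is 1 of the 17019 genes tested, with the log2 difference of 5xFAD minus wild-type on the x axis and -log10 of the unadjusted p (edgeR's quasi-likelihood test) on the y axis. The 27 genes that rose lie to the right, with Clec7a, Cst7 and Itgax farthest out, and the 3 that fell (Gjc1, Gm26917 and Rtkn) to the left.

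The sensors and effectors of the disease-associated state gave the largest differences. Clec7a, also called dectin-1, is a pattern-recognition receptor of myeloid cells (ENSMUSG00000079293.11, chromosome 6, 129461591 to 129472779 in GRCm38). It stood at 0.952, 0.743, 0.182 and 0.421 CPM in wild-type replicates 1 to 4 and at 47.4, 44.5, 32.3 and 21.0 CPM in 5xFAD replicates 1 to 4. The lowest 5xFAD library was thus far above the highest wild-type library, and the fold was 61.6 (log2 5.94, SE 0.34, adjusted p = 7.04e-08). The annotation labels Clec7a a polymorphic pseudogene, and its reads were counted like those of any other gene.

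Cst7 encodes cystatin F, an inhibitor of lysosomal cysteine proteases (ENSMUSG00000068129.5, chromosome 2, 150570415 to 150578944). Its levels were 0, 0, 1.33 and 0.316 CPM in wild-type and 57.0, 53.2, 30.8 and 21.0 CPM in 5xFAD. The wild-type libraries held 28 Cst7 reads in all against 2636 in 5xFAD, a ratio of 92.4 after scaling by depth (95% counting interval 63.8 to 139). The groups were far apart, and both 5xFAD females exceeded both males (log2 6.40, SE 0.64, adjusted p = 0.000136). Itgax, the integrin subunit CD11c, was at 0, 0, 0 and 0.0526 CPM in wild-type and at 4.41, 3.83, 0.792 and 0.618 CPM in 5xFAD. Wild-type held a single Itgax read and 5xFAD 157, a ratio of 154 with a 95% counting interval of 27.3 to 6128, so the size of this difference is poorly bounded. Such intervals cover counting error only. Itgax passed the threshold (adjusted p = 0.0298) but did so in 1 of the 8 models that left out 1 of its own libraries.

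Trem2 and Tyrobp, receptor and adaptor of one complex, moved by similar amounts. Trem2 (ENSMUSG00000023992.14, chromosome 17, 48346401 to 48354147) stood at 29.2, 30.0, 24.8 and 18.7 CPM in wild-type and 89.9, 92.7, 73.7 and 55.5 CPM in 5xFAD. Tyrobp (ENSMUSG00000030579.10, chromosome 7, 30413760 to 30417585) stood at 47.1, 51.8, 38.9 and 23.3 CPM in wild-type and 137, 148, 137 and 77.3 CPM in 5xFAD. For both genes replicate 4 was the lowest of its group in wild-type and in 5xFAD, and the groups did not overlap. The folds were 3.00 (log2 1.59, SE 0.17, adjusted p = 0.000274) and 3.07 (log2 1.62, SE 0.22, adjusted p = 0.00192). Further down the pathway, none of the other 18 genes of the Trem2 and Tyrobp signalling list passed. The transmembrane adaptor Lat2 had a log2 difference of 1.23 (SE 0.36, adjusted p = 0.237) and the phosphatase Ptpn6 one of 0.79 (SE 0.25, adjusted p = 0.283). The 20 listed genes had a median of 0.30, with 18 above 0.

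Fc receptors bind the constant part of antibodies, and their signalling chain Fcer1g belongs to the same adaptor family as Tyrobp. Fcgr3 was at 53.9, 46.8, 43.4 and 32.4 CPM in wild-type and 106, 115, 104 and 71.5 CPM in 5xFAD. It rose 2.24-fold (log2 1.16, SE 0.16, adjusted p = 0.00283), and Fcer1g rose 2.30-fold, from 13.6 ± 2.81 to 31.2 ± 3.62 CPM (SD, n = 4; adjusted p = 0.00283). The inhibitory receptor Fcgr2b (log2 1.23, adjusted p = 0.221) and the high-affinity receptor Fcgr1 (0.80, adjusted p = 0.298) did not pass. Among 8 Fc receptor genes the median log2 difference was 0.98. Microglial genes of this kind are known targets of PU.1, the myeloid transcription factor encoded by Spi1, which binds purine-rich sites. The 250 bases before the RefSeq start site (GRCm38.p6) were therefore searched on both strands for the PU.1 core GAGGAAG. Of the 27 genes that rose, 20 matched an entry, and 4 of these (20%) held the core (Trem2, Fcgr3, Hpgds and Samsn1), against 12.9% of 12273 tested genes with an entry and 10.6% of all 32851 promoters. The upstream sequences of Trem2 (chr17:48346151-48346400, plus strand) and Fcgr3 (chr1:171059404-171059653, minus strand) are shown 5′ to 3′, as those of these 4 genes with the smallest p values. Each holds 1 match, which is on the opposite strand and in capitals. A match is a description of the letters and not evidence of binding.
Trem2: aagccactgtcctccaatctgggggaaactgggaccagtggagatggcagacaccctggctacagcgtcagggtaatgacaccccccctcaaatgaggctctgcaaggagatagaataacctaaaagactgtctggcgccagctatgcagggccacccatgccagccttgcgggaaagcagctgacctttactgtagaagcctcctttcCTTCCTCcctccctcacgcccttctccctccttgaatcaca
Fcgr3: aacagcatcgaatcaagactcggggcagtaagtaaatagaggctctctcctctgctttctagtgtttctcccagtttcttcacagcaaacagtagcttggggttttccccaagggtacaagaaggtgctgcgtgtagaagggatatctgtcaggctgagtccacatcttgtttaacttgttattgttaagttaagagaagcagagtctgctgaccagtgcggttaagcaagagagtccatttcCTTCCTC

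Other surface molecules and secreted products of myeloid cells rose as well. Ccl6, a chemokine of the CC family, was at 5.60, 3.88, 6.24 and 2.103 CPM in wild-type and 44.9, 41.4, 33.1 and 23.8 CPM in 5xFAD. It rose 8.01-fold (log2 3.00, SE 0.31, adjusted p = 0.000136), with no overlap. The costimulatory molecule Cd86, which helps activate T cells, was even across the 5xFAD libraries, at 12.5, 13.6, 11.2 and 11.97 CPM against 5.00, 3.39, 3.57 and 4.36 CPM in wild-type (3.01-fold, adjusted p = 0.000693). The short glycoprotein Cd52 rose 4.71-fold (adjusted p = 0.000439) and the lysozyme gene Lyz2 3.78-fold, from 26.1 ± 7.93 to 98.9 ± 24.6 CPM (SD, n = 4; adjusted p = 0.000439).

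The smaller changes covered receptors and signalling molecules of immune cells. Mpeg1, a pore-forming protein of macrophages, rose 2.92-fold, and the toll-like receptor partner Ly86 2.15-fold. The adhesion receptor Cd84 rose 3.05-fold and the adaptor Samsn1 3.30-fold. The leukocyte phosphatase Ptprc, also known as CD45, rose 2.26-fold, the oxidase subunit Cyba 1.92-fold and the actin-capping protein Capg 2.54-fold. Of these 7 genes Mpeg1 alone passed without each of the 8 libraries of the comparison in turn, and Ptprc failed in each of those 8 models. Samsn1 and Cd86 were the 2 of the 27 on chromosome 16.

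Genes of lysosomal digestion split into a part that rose and a larger part that did not. The cysteine protease cathepsin S (Ctss) was at 132, 132, 114 and 115 CPM in wild-type and 296, 314, 193 and 176 CPM in 5xFAD (1.95-fold, log2 0.96, SE 0.15, adjusted p = 0.00667). The aspartic protease cathepsin D (Ctsd) rose 1.78-fold, from 381 ± 40.4 to 685 ± 158 CPM (SD, n = 4; adjusted p = 0.0188). For both, the 5xFAD females were the high pair and the groups did not overlap. Ctss passed in 7 and Ctsd in 3 of the 8 models that left out 1 library of the comparison. Of 16 cathepsin and cystatin genes 3 rose (Cst7, Ctss and Ctsd) and the median log2 difference was 0.32. Of 38 lysosome genes 1 rose, 22 lay below 0, and the median was -0.07. Cd68, a lysosomal membrane protein of macrophages, was at 40.8 and 46.1 CPM in the 5xFAD females and 15.1 and 14.2 CPM in the males, against 9.42 to 13.04 CPM in wild-type (log2 1.21, SE 0.28, adjusted p = 0.118).

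In lipid metabolism, lipoprotein lipase (Lpl) rose 1.73-fold, from 21.4 ± 3.94 to 36.9 ± 4.20 CPM (SD, n = 4; adjusted p = 0.0192), and the prostaglandin D synthase Hpgds rose 2.29-fold (adjusted p = 0.0403). In the 8 models that left out 1 library of the comparison, Lpl passed in 2 and Hpgds in 1. Apoe, the main lipid carrier of the brain and a member of the disease-associated list, was at 3932, 3616, 3486 and 2838 CPM in wild-type and 3370.1, 3487, 2454 and 3139 CPM in 5xFAD. The Apoe groups overlapped (log2 -0.16, SE 0.14, adjusted p = 0.696). Over 29 lipid-handling genes the median log2 difference was -0.03, and its sign changed in 2 of 24 alternative settings.

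C1q starts the classical complement pathway and is made in the brain mainly by microglia. C1qb rose 1.70-fold, with 94.8, 103, 89.5 and 80.7 CPM in wild-type against 175, 193, 139.9 and 123 CPM in 5xFAD (log2 0.77, SE 0.14, adjusted p = 0.0309). Its partner subunits gave similar differences and did not pass, at log2 0.67 (SE 0.15, adjusted p = 0.118) for C1qa and 0.73 (SE 0.18, adjusted p = 0.146) for C1qc. The C1qb call held in 1 of the 8 models without one of its libraries. Of 19 complement genes 2 rose, C1qb and Itgax, and the median was 0.42.

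**Figure D2:**
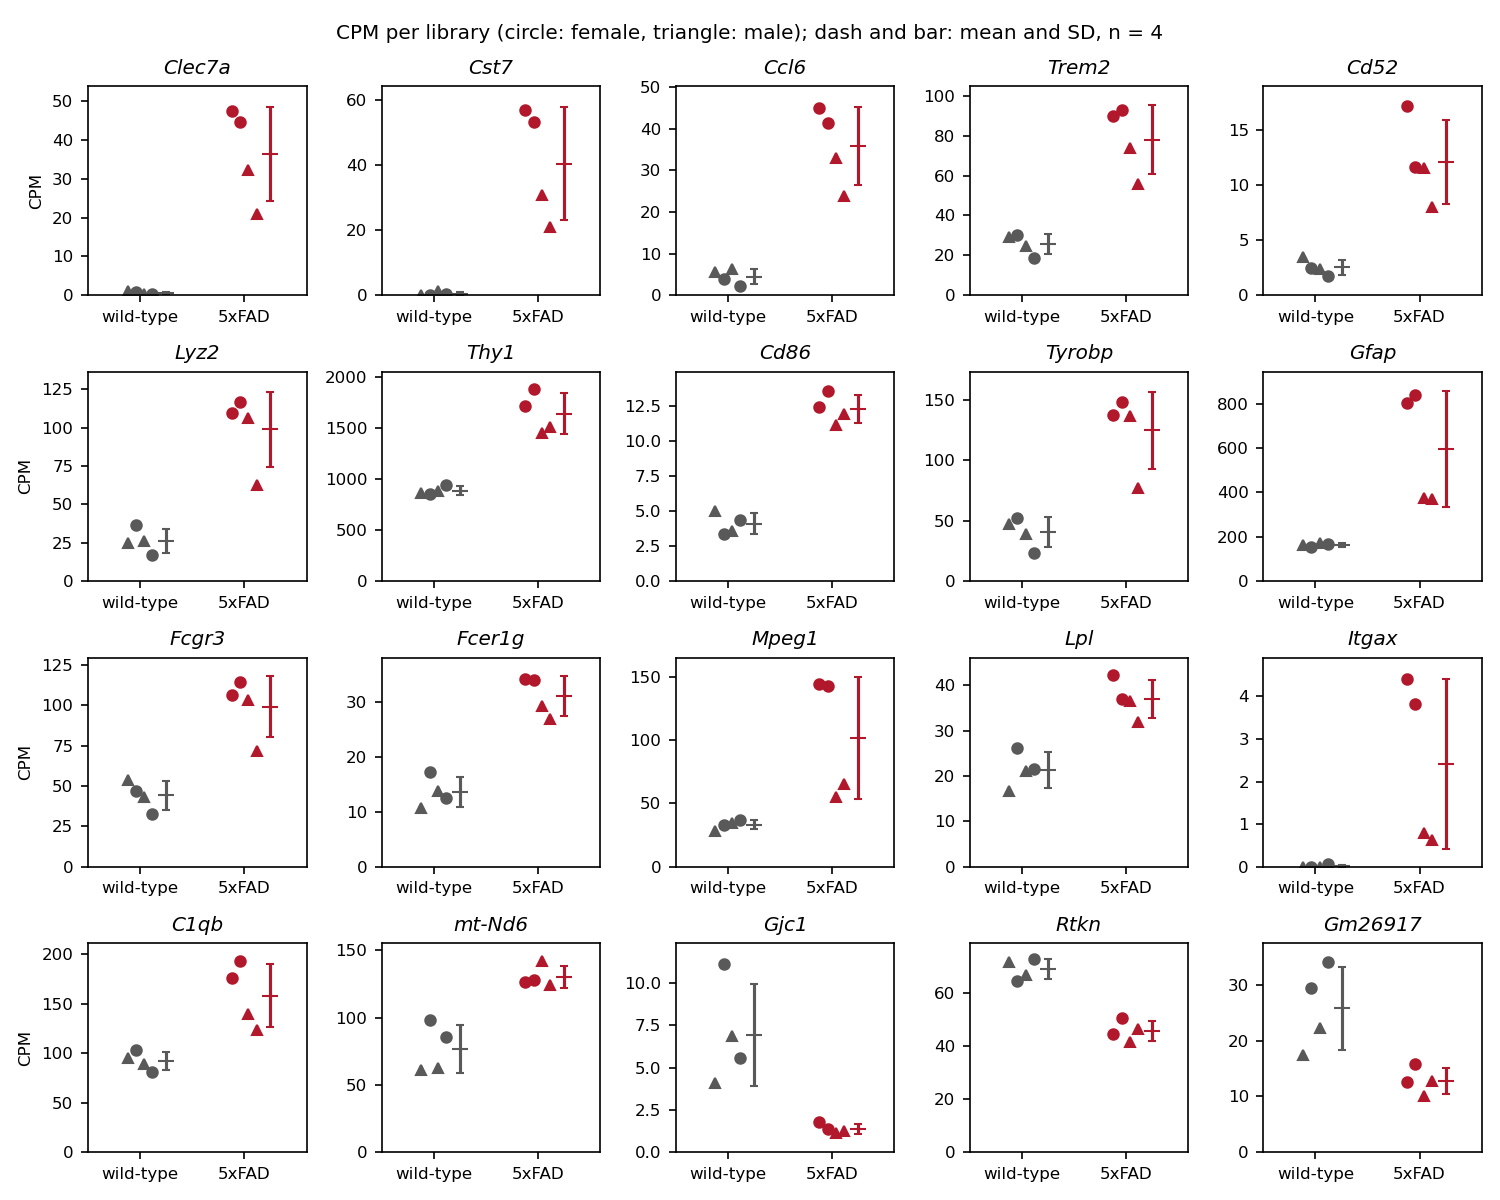
Each panel shows CPM per library (y axis, linear scale from 0) for 1 gene, in wild-type and 5xFAD, with circles for females and triangles for males, for 17 of the genes that rose and the 3 that fell. The dash and bar beside the points are the group mean and 1 SD (n = 4). For Gfap the 5xFAD females stand at 802 and 840.0 CPM and the males at 373 and 369.8 CPM, all above the wild-type libraries.

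Microglial lists differed in how many members rose. Of 33 disease-associated genes 10 rose, 30 lay above 0, and the median log2 difference was 0.46. Of 20 general microglial genes 6 rose (Tyrobp, Fcer1g, Ctss, Ly86, Ptprc and Cyba), and the median was 0.79. Of 22 homeostatic genes 1 rose, with a median of 0.10 that was -0.11 among males and 0.39 among females. Within that list, the purinergic receptor P2ry12 was at 77.3, 66.2, 56.5 and 61.2 CPM in wild-type and 106, 104, 94.3 and 84.9 CPM in 5xFAD (log2 0.57, SE 0.12, adjusted p = 0.0836). The P2ry12 groups did not overlap, but the gene did not pass. The microglial surface protein Tmem119 (log2 -0.14, adjusted p = 0.851) and the survival receptor Csf1r (-0.14, adjusted p = 0.912) were near 0 with overlapping groups. These lists and the plaque-associated list, of which 16 of 56 members rose (median 0.45), share genes and are not independent.

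Markers of other immune cells were scarce. Of 18 lymphocyte genes 4 passed the filter, and all 18 summed to 39.5 to 47.5 CPM in wild-type and 34.2 to 60.1 CPM in 5xFAD. Of 12 genes of monocytes and neutrophils 3 passed, and all 12 summed to 3.96 to 11.4 CPM and 5.67 to 9.56 CPM. The 12 listed genes of border-associated macrophages, of which 10 were tested, summed to 7.45 to 14.5 CPM in wild-type and 9.11 to 10.2 CPM in 5xFAD. No member of these 3 lists passed the threshold, and the ranges of the groups overlapped. Compared per length, the mean 5xFAD levels of the raised genes spanned Thy1 at 851 RPKM down to Itgax at 0.554 RPKM, with Tyrobp at 215 RPKM, Ctss at 177 RPKM, Trem2 at 66.5 RPKM and Clec7a at 15.5 RPKM between them, a unit that corrects counts for gene length and library total.

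**Figure D3:**
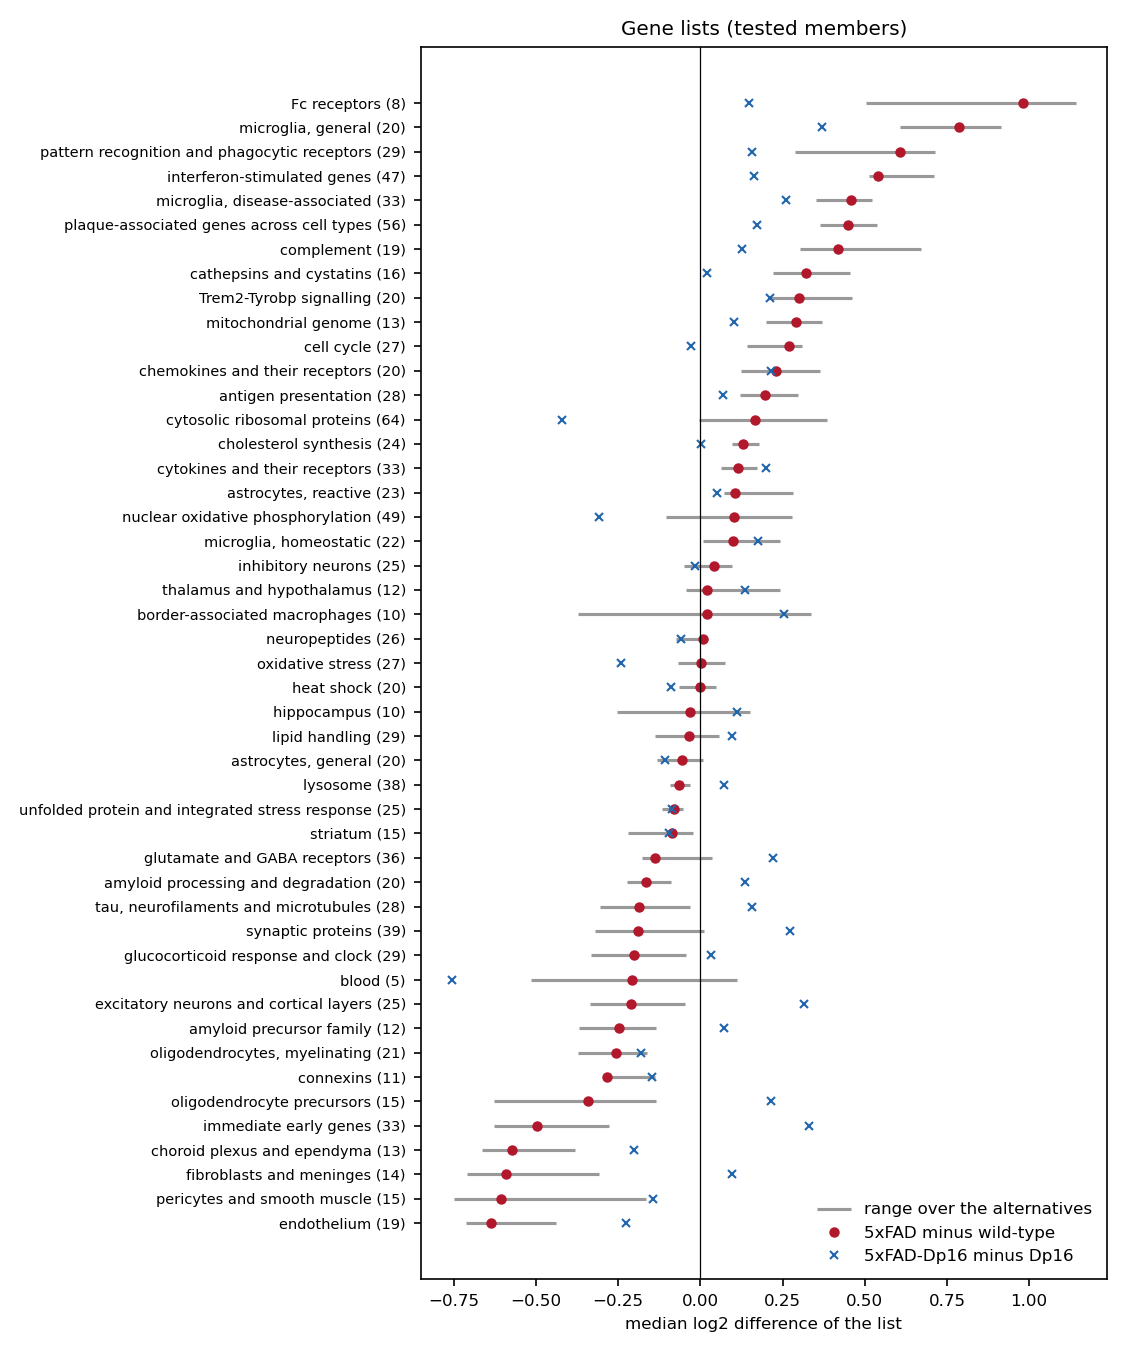
Each row is a gene list with 5 or more tested members (their number in brackets), and the x axis is the median log2 difference of the list's members. Red dots are 5xFAD minus wild-type, grey bars the range of that median over the alternative analyses, blue crosses 5xFAD-Dp16 minus Dp16, and the vertical line marks 0. The red dots of the microglial lists lie right of the line, at 0.79 for general and 0.46 for disease-associated genes, and that of the endothelium list lies left of it at -0.64.

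Interferon-stimulated genes mostly lay above wild-type without passing. Of 47 such genes 42 had a log2 difference above 0, the median was 0.54 beside 0.02 over all genes, and 0 passed the threshold. Of the 47, 11 had all 5xFAD libraries above wild-type, beside 2.8% of all genes tested. The small antiviral protein gene Ifi27l2a was at 0.476, 2.15, 0.666 and 0.316 CPM in wild-type and 4.68, 5.83, 7.65 and 2.42 CPM in 5xFAD. Its groups were close but did not overlap (log2 2.61, SE 0.55, adjusted p = 0.0856). The transcription factor gene Irf7 had a log2 difference of 1.35 (SE 0.34, adjusted p = 0.181) and Irf9, a subunit of the interferon-activated factor ISGF3, one of 0.76 (SE 0.17, adjusted p = 0.118). The summed level of all 55 listed genes, tested or not, was 209 to 237 CPM in wild-type and 284 to 394 CPM in 5xFAD.

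ISGF3 and related factors bind the interferon-stimulated response element, whose core was searched on both strands as GAAA, any 2 bases and GAAA again, in the same 250 bases. It occurred in 18 of 38 listed interferon genes with an entry (47.4%), in 3.12% of the tested genes and in 2.98% of all promoters. Among the 20 genes that rose and had an entry, 1 held it (Ctss, 5%). Of the 18 interferon genes with the core 16 were above 0, with a median of 0.67, and of the 20 without it 17, with a median of 0.50. The 2 sets were not tested against each other. Ifit3 (chr19:34583279-34583528, plus strand) and Bst2 (chr8:71537473-71537722, minus strand) are shown as the interferon genes with the core that had the smallest p values. They hold 2 matches each, on the opposite strand in Ifit3 and overlapping one another in Bst2. Capitals mark the matches, and both genes were chosen after their values were seen.
Ifit3: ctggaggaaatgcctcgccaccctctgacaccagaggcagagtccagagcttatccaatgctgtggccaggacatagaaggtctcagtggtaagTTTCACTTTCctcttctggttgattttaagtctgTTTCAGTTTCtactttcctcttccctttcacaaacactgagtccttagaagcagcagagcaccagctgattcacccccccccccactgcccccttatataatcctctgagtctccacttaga
Bst2: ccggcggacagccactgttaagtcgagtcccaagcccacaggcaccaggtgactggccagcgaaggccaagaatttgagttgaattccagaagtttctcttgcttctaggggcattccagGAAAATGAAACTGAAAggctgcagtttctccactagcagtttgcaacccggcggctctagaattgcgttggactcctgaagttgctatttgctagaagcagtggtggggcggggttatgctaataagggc
Ifit3, an antiviral protein that senses foreign RNA as part of a complex, was at 9.11, 10.2, 7.81 and 8.83 CPM in wild-type and 20.8, 13.03, 14.6 and 12.8 CPM in 5xFAD (log2 0.76, SE 0.21, adjusted p = 0.216). Bst2, or tetherin, holds budding virus at the cell surface and averaged 3.18 ± 1.29 against 7.07 ± 2.44 CPM (SD, n = 4; log2 1.20, SE 0.40, adjusted p = 0.287). The groups were apart for Ifit3 and overlapped for Bst2.

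Of the chemokine genes other than Ccl6, Ccl3, Ccl4 and Ccl9 had the smallest p values, and none of the 3 passed. Ccl3 was at 0, 0, 0.242 and 0.526 CPM in wild-type and 4.22, 4.34, 3.17 and 0.899 CPM in 5xFAD (log2 3.90, SE 0.81, adjusted p = 0.0813), and Ccl4 was at 0.238, 0, 0 and 0 against 1.38, 0.972, 0.990 and 1.24 CPM (adjusted p = 0.181). Both attract monocytes and T cells, and for both every 5xFAD library was above every wild-type library. Ccl9 was at 1.61, 7.76, 4.30 and 4.52 CPM in wild-type and 9.75, 9.03, 15.97 and 9.33 CPM in 5xFAD, again with no overlap (log2 1.35, SE 0.34, adjusted p = 0.181). Cxcl10, an interferon-induced chemokine, reached 1.45 and 1.89 CPM in the 5xFAD females and 0.264 and 0.169 CPM in the males, against 0 to 0.158 CPM in wild-type (adjusted p = 0.269). Of 20 chemokine genes and receptors 1 rose, with a median of 0.23. No cytokine gene or receptor passed out of 33, and of 28 antigen presentation genes 1 rose (Cd86, median 0.20).

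Among astrocyte genes Gfap was the exception. It stood at 161, 152, 170.2 and 165 CPM in wild-type and at 802, 840.0, 373 and 369.8 CPM in 5xFAD. The wild-type libraries were tightly grouped, while the 5xFAD females formed a higher pair and the males a lower one. Gfap rose 3.57-fold (ENSMUSG00000020932.14, chromosome 11, 102887336 to 102900912; log2 1.84, SE 0.26, adjusted p = 0.00283). No other of the 23 reactive astrocyte genes passed, and their median was 0.11. The protease inhibitor Serpina3n, often used as a marker of reactive astrocytes, had a log2 difference of 0.34 (SE 0.25, adjusted p = 0.64). The 20 general astrocyte genes had a median of -0.06, and none passed.

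A connexin gene led the 3 that fell. Gjc1 encodes connexin 45, a gap junction protein of neurons and vascular smooth muscle (ENSMUSG00000034520.14, chromosome 11, 102799579 to 102819700). It was at 4.11, 11.1, 6.90 and 5.57 CPM in wild-type and 1.78, 1.37, 1.12 and 1.24 CPM in 5xFAD. The wild-type values were spread widely, yet the lowest of them was above the highest 5xFAD value (4.96-fold lower in 5xFAD, log2 -2.31, SE 0.32, adjusted p = 0.0024). By coordinate, 67635 bases lie between Gjc1 and Gfap, and both genes are on the minus strand of chromosome 11. The other 10 connexin and pannexin genes did not pass. Astrocyte connexin 43 (Gja1) was near 0 (log2 -0.0037), and the vascular connexin Gja4 was at -0.95 (adjusted p = 0.327).

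Rtkn, which encodes a signalling protein, was at 71.7, 64.8, 67.0 and 72.8 CPM in wild-type and 44.7, 50.6, 41.8 and 46.5 CPM in 5xFAD (1.51-fold lower, log2 -0.59, SE 0.11, adjusted p = 0.0333). Gm26917, a long noncoding RNA gene on chromosome 17, fell from 25.8 ± 7.40 to 12.8 ± 2.30 CPM (SD, n = 4; adjusted p = 0.0361). Both passed in 1 of the 8 models without one of their libraries. Among raised genes outside the immune lists, the mitochondrial mt-Nd6, a subunit of respiratory complex I encoded on the light strand, was at 61.0, 98.0, 62.4 and 85.7 CPM in wild-type and 126, 128, 142 and 124 CPM in 5xFAD (1.74-fold, adjusted p = 0.0314). It passed in 3 of those 8 models, and it lies opposite other mitochondrial transcripts, from which reads can be told apart only if strand was used in counting. The 13 mitochondrial genes had a median of 0.29, 0.48 among females and 0.01 among males; the share of mitochondrial reads was higher in the 5xFAD females, and its part in these values was not tested.

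Thy1, an immunoglobulin-family protein of neurons whose promoter drives the transgenes, was at 861, 855, 883 and 946 CPM in wild-type and 1719, 1885, 1449 and 1507 CPM in 5xFAD. It rose 1.84-fold (log2 0.88, SE 0.11, adjusted p = 0.000669), with no overlap. Reads of the mouse gene and of any Thy1 sequence in the transgene construct cannot be told apart in counts per gene. The mouse App gene was at 1131, 841, 1140.0 and 1507 CPM in wild-type and 918, 893, 604 and 933 CPM in 5xFAD (log2 -0.47, SE 0.18, adjusted p = 0.368), and the groups overlapped. Counts of the human sequences of the transgenes were not analysed here. Of 12 genes of the amyloid precursor family and its adaptors, and of 20 genes of amyloid processing and degradation, none passed (medians -0.25 and -0.17).

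Vascular, oligodendrocyte and neuronal lists had members that lay lower without passing. Of 19 endothelial genes 18 were below 0, with a median of -0.64, and the tight junction gene Cldn5 was at 68.0, 52.4, 48.0 and 48.8 CPM in wild-type and 34.3, 36.6, 31.9 and 34.4 CPM in 5xFAD (log2 -0.67, SE 0.16, adjusted p = 0.163). The Cldn5 groups did not overlap. Pericyte and smooth muscle genes had a median of -0.61 and meningeal fibroblast genes one of -0.59. Choroid plexus and ependymal genes had a median of -0.57, with summed levels of 75.8 to 92.7 CPM in wild-type and 54.8 to 62.6 CPM in 5xFAD. In 5xFAD-Dp16 minus Dp16 the medians were -0.23 for endothelium, -0.14 for pericytes and smooth muscle, 0.10 for fibroblasts and -0.20 for choroid plexus. Whether vessels, meninges or ventricle lining were sampled to a different extent in the groups was not tested.

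Myelin genes had a median of -0.26 over 21 members. Mog, a protein of the outer myelin sheath, was at 101, 82.3, 75.9 and 80.5 CPM in wild-type and 63.4, 57.2, 58.1 and 50.9 CPM in 5xFAD (log2 -0.57, SE 0.13, adjusted p = 0.118), with no overlap. The 33 immediate early genes, which neurons switch on with activity, had a median of -0.50, with 29 below 0 and 7 with all 5xFAD libraries below wild-type, beside 2.68% of all genes tested. The phosphatase gene Dusp1 was at 65.8, 51.3, 70.3 and 63.7 CPM in wild-type and 41.2, 42.5, 49.9 and 41.6 CPM in 5xFAD (log2 -0.52, SE 0.14, adjusted p = 0.21). Dusp1 did not overlap either. Excitatory neuron genes had a median of -0.21 and synaptic protein genes one of -0.19, the latter above 0 in 1 of 24 alternative settings. The 64 ribosomal protein genes had a median of 0.17, with 60 above 0, but it was 0.40 among males and -0.04 among females. The immediate early median was -0.73 among males and -0.26 among females. None of these 5 lists held a gene past the threshold. In 5xFAD-Dp16 minus Dp16 the medians were -0.18 for myelin, 0.33 for immediate early and 0.32 for excitatory neuron genes. There they were 0.27 for synaptic and -0.42 for ribosomal protein genes, so only the myelin median kept its sign.

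The response was then compared between the sexes, with 2 animals of each sex per group. All 27 raised genes were higher in 5xFAD in males and in females taken separately. That follows from the lack of overlap between the groups and adds no information on the sexes. Within females 22 genes passed (0.129% of those tested), 18 of them among the 27, and the other 4 were C1qa, C1qc, Cd68 and Irf8, a transcription factor of the myeloid lineage. Within males 3 passed (0.0176%), Clec7a, Cst7 and Ccl6. The median log2 difference of the 27 was 1.52 in females and 1.17 in males, beside -0.04 and 0.04 over all genes tested. Of the 27, 24 were larger in females, but the share of all genes larger in females was not counted. The 3 larger in males were Fcer1g, Lpl and mt-Nd6. In 23 of the 27, both 5xFAD females stood above both 5xFAD males, an order that 29.6% of all genes tested showed. In wild-type the same order held for 2 of the 27 genes, Lpl and mt-Nd6, and for 11% of all genes.

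The difference between the sexes was also tested directly. No gene passed for the effect in females minus the effect in males (edgeR's quasi-likelihood test, 0 of 17019, 0%; 920, or 5.41%, had an unadjusted p below 0.05, and DESeq2 called 1). The count was 63 without wild-type replicate 4, a female library. Of the 27 raised genes 8 had an unadjusted p below 0.05, 7 of them with the larger effect in females. For Mpeg1 the effect was 2.05 on the log2 scale in females and 0.93 in males (unadjusted p = 0.000909, adjusted p = 0.78). For Gfap it was 2.38 and 1.17 (unadjusted p = 0.00176, adjusted p = 0.78), and for Ccl6 3.88 and 2.26 (unadjusted p = 0.00214, adjusted p = 0.78). The 5xFAD females also had the higher mitochondrial shares, and the part of that in the sex values was not tested. With 2 animals in each cell, the within-sex values rest on few libraries.

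**Figure D4:**
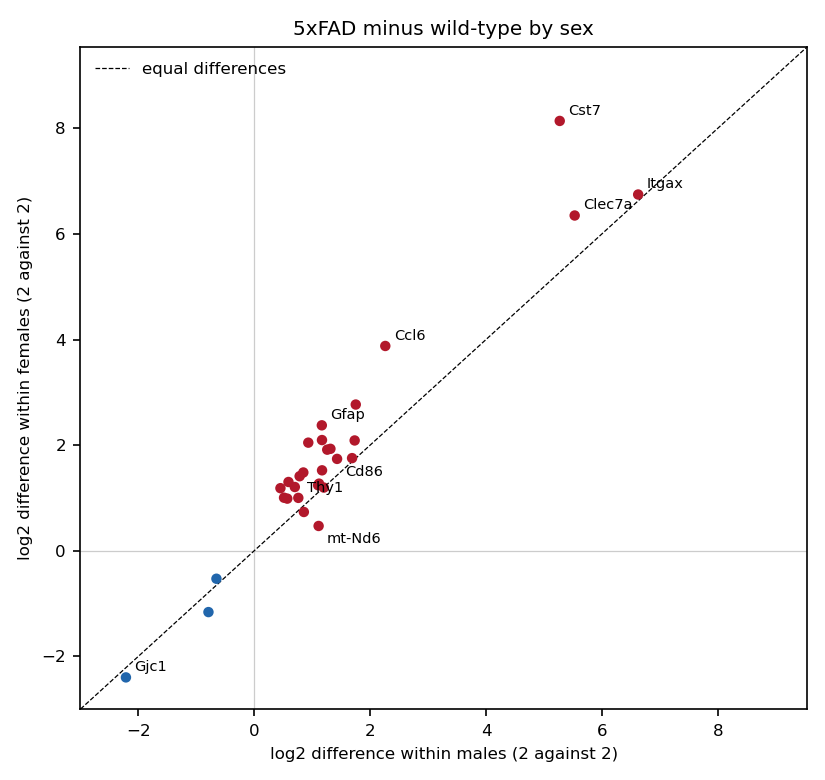
Each point is 1 of the 30 genes past the threshold, with the log2 difference of 5xFAD minus wild-type in males on the x axis and in females on the y axis, and the dashed line marks equal effects. Of the 27 raised genes 24 lie above the line, with medians of 1.17 in males and 1.52 in females, beside 0.04 and -0.04 over all genes tested.

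The same transgenes were present in a second set of animals, since 5xFAD-Dp16 against Dp16 shares no library with 5xFAD against wild-type. There 3 genes passed, all higher (0.0176%), and all 3 were among the 27: Clec7a (log2 3.30, adjusted p = 0.00023), Cst7 (5.31, adjusted p = 0.0037) and Thy1 (0.99, adjusted p = 0.00143). Clec7a averaged 1.45 ± 0.299 CPM in Dp16 and 12.03 ± 1.58 CPM in 5xFAD-Dp16 (SD, n = 4). Cst7 averaged 0.440 ± 0.305 and 12.7 ± 3.39 CPM, and Thy1 863 ± 48.5 and 1647 ± 138 CPM. Thus the 5xFAD-Dp16 means of Clec7a and Cst7 were below every 5xFAD library, while the Thy1 mean lay within the 5xFAD range. The 27 raised genes were above 0 in 23 cases there, as were 51.6% of all genes tested, with a median of 0.39 beside 1.34. The 4 below 0 were Cd86, Fcgr3, Cyba and Capg, and Thy1 was the only 1 of the 27 with a larger value than in 5xFAD against wild-type. The 3 genes that fell were also below 0, with Gjc1 at 4.57 ± 0.759 CPM in Dp16 and 3.55 ± 0.929 CPM in 5xFAD-Dp16.

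The 27 were picked by their adjusted p in 5xFAD against wild-type, a choice that favours larger values there than in the second set. Sex also differed, as the 5xFAD-Dp16 animals were males. The part of either in the smaller values was not tested. The difference between the 2 backgrounds passed for no gene (edgeR's quasi-likelihood test, 0 of 17019, 0%; 1591, or 9.35%, had an unadjusted p below 0.05, and DESeq2 called 21). For Cd86 the effect on the Dp16 background minus that on the wild-type background was -1.73 on the log2 scale (SE 0.28, adjusted p = 0.2), for Clec7a -2.65 (SE 0.46, adjusted p = 0.23) and for Trem2 -1.05 (SE 0.25, adjusted p = 0.52). For Thy1 it was 0.11 (SE 0.16, adjusted p = 0.77).

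**Figure D5:**
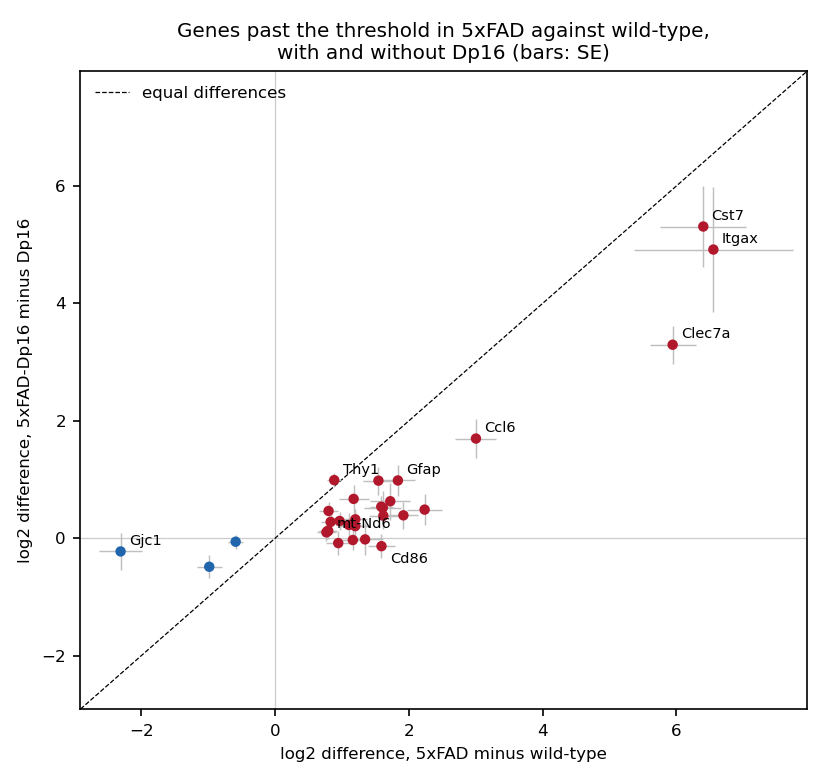
Log2 differences of the 30 genes past the threshold in 5xFAD against wild-type (x axis) and in 5xFAD-Dp16 against Dp16 (y axis), with bars of 1 SE and a dashed line of equal values. Thy1 lies just above the line, and 26 of the 27 raised genes lie below it.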

How the data were processed

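Polyadenylated RNA from the cortex of 16 mice was sequenced, and 8 libraries enter the main comparison. TRIzol extraction, a strand-specific kit and paired reads on a NovaSeq instrument are given per the labels' protocols. Raw read counts for 55385 genes were deposited by the authors with no normalization. RPKM values deposited by the authors served only for levels per length and gene lengths, and 100.0% of those above 0 matched the count table within 0.1%. Per the submitters' processing notes, bcl2fastq, FastQC 0.11.5, HISAT2 2.1.0, SAMtools 1.5 and HTSeq 0.6.1 were used with GRCm38. Their roles and the strand setting are not given in the sources used here. Without strand, reads of overlapping or antisense genes are not separated.

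Coordinates came from the GRCm38 Gencode M21 annotation by gene identifier (55144 genes matched, 241 not). Genes were filtered with edgeR's filterByExpr and scaled by TMM factors. edgeR 4.0.16 in R 4.3.3 fitted a mean per genotype and an additive sex term to 16 libraries (common biological coefficient of variation 0.266), with robust quasi-likelihood tests, two-sided, adjusted by Benjamini-Hochberg over 17019 genes at 0.05. A second model with a mean for each of 7 genotype and sex cells gave the within-sex effects. Each SE was calculated back from the test, as the absolute log2 difference divided by the square root of the F statistic. It is approximate for genes with few reads. The adjusted p-values measure the spread between animals, which the labels number as separate samples. Alternatives were DESeq2 1.42.0, other size factors, no filter, no sex term, a gene length trend removed, only the compared groups, a replicate block and each library left out. Same-numbered libraries of the 2 groups did not deviate together (correlations -0.14, -0.15, 0.04 and -0.08), so the numbers were not taken as pairs. The sequences are RefSeq promoters of GRCm38.p6. In simulated data for 5xFAD against wild-type (16668 genes), 46.4% of genes changed by 1 and 76.8% of genes changed by 2 on the log2 scale were called. In the same simulation 8 unchanged genes were called as well. The simulated counts held no gene length trend, unlike the libraries described above.

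Named genes were the label checks, the genes past the threshold and the 4 members of each list with the smallest p values. Apoe, Tmem119, Csf1r, Serpina3n, Irf8, Gja1 and the promoter examples were added after their values were seen. The members and the 49 lists were chosen with earlier results of these data known. Lists are described by counts and medians without a test. Values of some single genes are not reported here.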

Additional observations from a re-analysis of the deposited data

Results flagged for a closer look

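In groups of 4, a library was taken as far from the others when its gap to the nearest one, divided by the range of the group, exceeded Dixon's 95% critical value for 4 samples. Of 64 groups examined 3 did so, and chance alone flags about 5% of groups. Tyrobp was at 77.3 CPM in 5xFAD replicate 4, below the other 5xFAD libraries (gap 0.842 of the range) and above all wild-type libraries. Itgax was at 0.053 CPM in wild-type replicate 4, the only wild-type library with a read (gap 1 of the range). App was at 604 CPM in 5xFAD replicate 3, below the other 5xFAD libraries (gap 0.876 of the range), and this library also correlated least with the rest.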

How the results depend on the processing

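For 5xFAD against wild-type, 30 genes passed. DESeq2 called 234 (125 higher, 109 lower), including all 30, and 235 passed with no filter on low counts (100 higher, 135 lower). With only the compared groups in the model 7 passed (7 higher). The count was 29 without the sex term, 30 with other size factors and 36 with the length trend removed (29 higher, 7 lower). With that trend removed, 4 of the 30 no longer passed. These were Ctss, C1qb, mt-Nd6 and Capg (edgeR's quasi-likelihood test, adjusted p = 0.0605, 0.142, 0.0951 and 0.0536). With the replicate block the count was 20, and for 5xFAD-Dp16 against Dp16 it was 2. Leaving out 1 library gave 16 to 32: 16 without wild-type replicate 3 or wild-type replicate 4, 17 without 5xFAD replicate 1, 19 without 5xFAD replicate 2 and 18 without 5xFAD replicate 3. Leaving out wild-type replicate 2 and 5xFAD replicate 3 together, an alternative chosen after seeing the data, gave 18. None of the 30 genes changed sign in the 24 settings, and 15 passed without each of the 16 libraries in turn. For 5xFAD-Dp16 against Dp16, 3 genes passed, with 25 by DESeq2, 45 with no filter, 5 with only the compared groups, 5 without those 2 libraries and 2 to 5 without 1 library. For the difference between backgrounds, 0 passed, with 21 by DESeq2, 346 with no filter and 0 to 1 without 1 library. For the difference between sexes, 0 passed, with 1 by DESeq2, 4 with no filter and 0 to 63 without 1 library. The causes were not tested. Of 49 list medians 34 kept their sign in all 24 settings. Depth limits the low genes: Itgax, Ccl3, Ccl4 and Cxcl10 rest on few or no wild-type reads.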

Other observations

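Of 27 tested cell cycle genes none passed, with a median log2 difference of 0.27. The summed level of all 30 listed genes was 163 to 211 CPM in wild-type and 179 to 288 CPM in 5xFAD. The anaphase-promoting complex partner Ube2c was at 0, 0.413, 0 and 0.158 CPM in wild-type and 0.988, 0.686, 0.660 and 0.169 CPM in 5xFAD (adjusted p = 0.415), and the cyclin Ccnb2 averaged 0.389 and 1.18 CPM (adjusted p = 0.475).

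Insulin-like growth factor 1 (Igf1) was at 3.87, 3.22, 5.75 and 4.15 CPM in wild-type and 9.36, 9.43, 7.32 and 6.35 CPM in 5xFAD (log2 0.93, SE 0.27, adjusted p = 0.237). Trac, the constant region of the T cell receptor alpha chain, was at 0.655, 0.661, 0.0606 and 0.684 CPM in wild-type and at 0.0659, 0, 0 and 0 CPM in 5xFAD (adjusted p = 0.256), so its groups overlapped at a level of few reads. The Y-linked initiation factor gene Eif2s3y was at 26.1 and 26.4 CPM in the wild-type males and 46.5 and 43.2 CPM in the 5xFAD males, while Ddx3y was at 49.3 and 54.2 against 49.0 and 58.8 CPM. Neither passed in the comparison of both sexes (edgeR's quasi-likelihood test, adjusted p = 0.305 and 0.927), where female libraries say little of Y-linked genes. Nor was either among the 3 genes that passed within males, with 2 animals per group.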
